A study of Mus musculus with 6 samples.

Results

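The genes described here are 8 interferon-induced genes of mouse haematopoietic stem cells, most of them coding for membrane proteins: Ifitm1, Ifitm2, Ifitm3, Bst2, Ly6e, Ifi27, Ifi27l2a and Lgals3bp. They were found as every probe set that the platform's table pairs with exactly 1 of these symbols, which gave 8 of the 18194 genes with a symbol of their own and 10 of the 45101 probe sets on the array, with 2 each for Ly6e and Ifi27 and 1 each for the other 6 genes. The cells came from C57BL/6 mice aged 8 to 12 weeks, either labelled as mutants without Irgm1 (older name Lrg-47), an interferon-induced GTPase, or labelled as wild type. Each group had 3 arrays. Stem cells were sorted from whole bone marrow as the side population by Hoechst dye with Sca-1, c-kit and lineage staining, and their RNA was amplified in vitro before hybridisation. The mice were kept pathogen-free, and the labels name no infection or interferon treatment in either group. The sources used here give neither the deleted part of the gene nor the number of mice behind each array.

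Interferons bind receptors at the cell surface and, through JAK kinases and STAT factors, switch on a large set of genes in nearly every cell type. Many of the products sit in membranes. The IFITM proteins lie in the plasma membrane and endosomes and hinder the fusion of enveloped viruses with the cell. Bst2 (tetherin) holds budding virus particles on the cell surface. Ly6e is a small protein held on the cell surface by a lipid anchor, and it alters the entry of several viruses. Ifi27 and Ifi27l2a belong to a family of small hydrophobic proteins known for strong induction by type I interferon. Lgals3bp is a secreted glycoprotein that binds galectin-3. Stem cells are known to hold some interferon-induced proteins, IFITM3 among them, without outside interferon.

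Each value is the authors' log2 expression of a probe set, so a difference of 1 is a doubling of signal. The array medians lay between 3.67 and 3.73. All 10 probe sets lay above the highest control probe set for bacterial transcripts, which was between 3.00 and 3.18, on all 6 arrays. Irgm1 itself, by its single probe set, read 7.68, 8.58 and 7.84 on the arrays labelled Irgm1-/- and 8.39, 8.57 and 8.36 on the wild-type arrays (limma adjusted p = 0.475). The groups overlapped, and a probe set outside the deleted part would check nothing, so the groups are named by their labels, and mutant arrays stands below for the arrays so labelled. Of 12 haematopoietic stem cell markers on the array, 12 were tested and 0 lay at or below the control probe sets on every array. Limma called 0 of them, with 1 higher and 5 lower on the mutant arrays at an unadjusted p under 0.05. By that rule 8.51% of all 10374 genes tested were higher and 1039 genes lower. The markers with the smallest p were Gata2 (log2 difference -0.83, adjusted p = 0.0664), Slamf1 (1.43, adjusted p = 0.145), Kit (-0.82, adjusted p = 0.195) and Procr (-0.37, adjusted p = 0.199). In each of these the groups did not overlap, so the lack of calls does not show that the markers were unchanged. Nothing in the labels says that the arrays of a group came from separate mice, so p-values measure the spread between these arrays, which may be technical.

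Of the 8 genes, 3 rose on the arrays labelled Irgm1-/-. Ifi27l2a rose by 6.90-fold, and Ifi27 by 2.35-fold and 2.99-fold in its 2 probe sets. Ly6e rose by 2.33-fold in 1 of its 2 probe sets, a call that held in 4 of 15 alternatives, and its other probe set, at 1.78-fold, did not pass (limma adjusted p = 0.188). These are bulk samples of sorted cells, in which a changed share of some cells and a changed amount of RNA per cell cannot be told apart. None of the other 5 genes passed the threshold, an adjusted p under 0.05 over all probe sets tested. Ifitm1 was the only one of the 10 probe sets with a negative difference. In all, 4 of 10 probe sets rose, against a background of 0.664% of the 22580 probe sets tested, and 0 fell, against 0.722%. At an unadjusted p under 0.05 limma gave 7 of the 10 probe sets, 6 of them higher and Ifitm1 lower, where 7.52% of all probe sets tested were higher and 8.90% lower by that rule. Every value of 1 group lay above every value of the other for 7 probe sets, 6 higher and 1 lower on the arrays labelled Irgm1-/-, where such separation was found for 11.5% of all tested probe sets on the higher side and 11.0% on the lower.

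**Figure D1:**
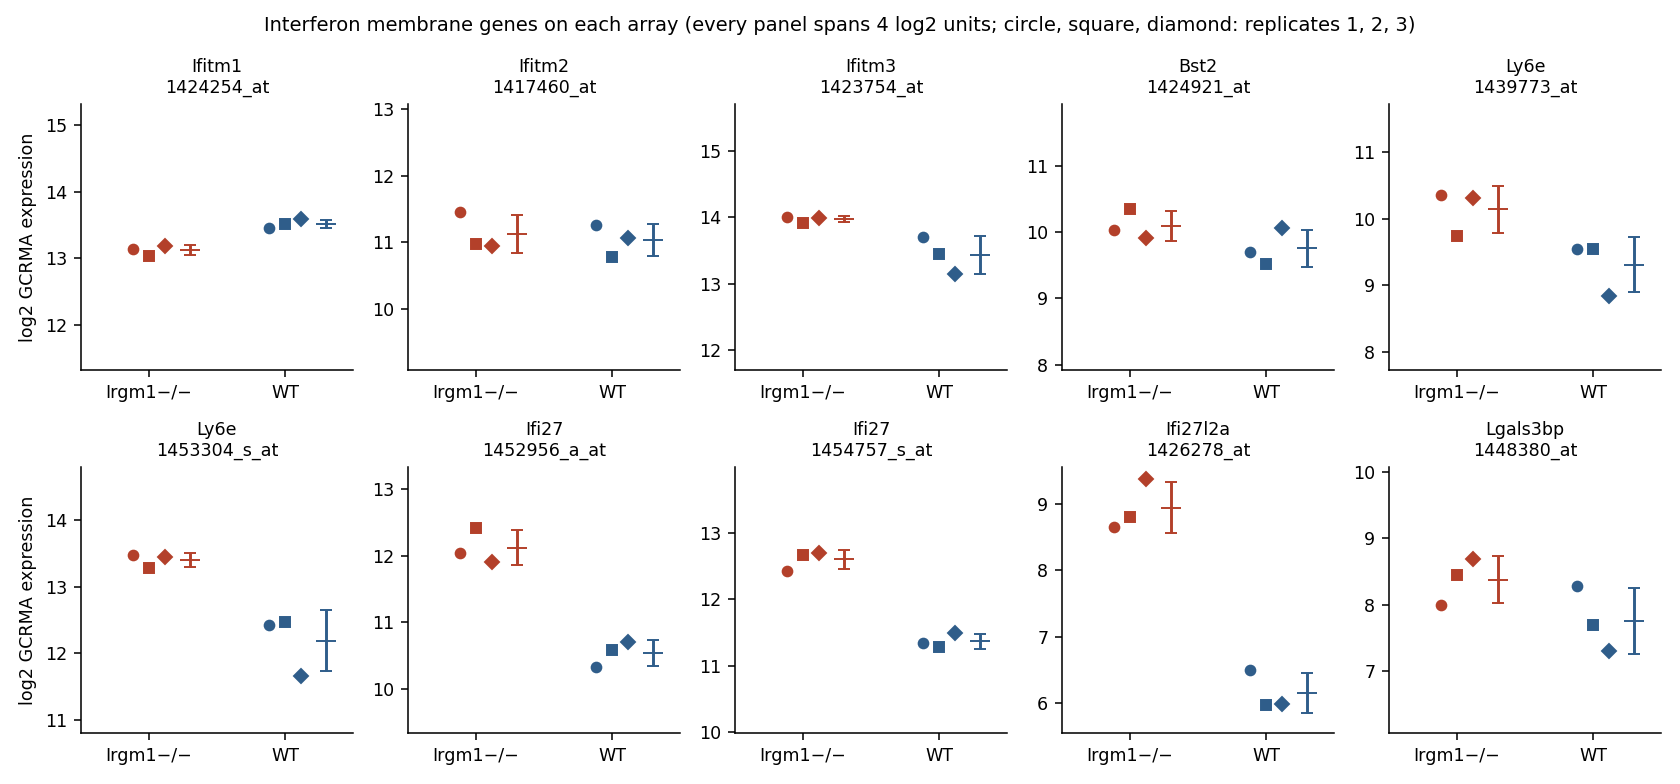
Log2 expression (vertical axis) of the 10 probe sets on the 3 arrays labelled Irgm1-/- (red, left) and the 3 wild-type arrays (blue, right); bars at the side are the mean and SD, and every panel spans the same range. Ifi27l2a shows the widest gap, at 8.94 against 6.15, Ifitm1 lies slightly lower on the arrays labelled Irgm1-/-, and Ifitm2, Bst2 and Lgals3bp overlap between the groups.

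Ifi27l2a had the widest difference of the 8 genes. Its probe set read 8.65, 8.80 and 9.37 on the arrays labelled Irgm1-/-, against 6.50, 5.97 and 5.98 on the wild-type arrays. The lowest of the first 3 was thus more than 2 log2 units above the highest of the wild-type arrays, and replicate 3 was the highest of all. The means were 8.94 ± 0.38 and 6.15 ± 0.30 (SD, n = 3 each), and the probe set rose by 2.79 on the log2 scale (SE 0.26, 95% confidence interval 2.19 to 3.38, adjusted p = 0.00533). As a fold this is 6.90, with an interval of 4.57 to 10.4. Only 16 of 10374 genes tested, each taken by its probe set with the highest mean, had a larger positive difference. Ifi27l2b, a close relative of the same family, read 5.43, 5.29 and 5.46 against 5.34, 5.39 and 5.35 in wild type, a difference of 0.03 (SE 0.14, adjusted p = 0.929), from a probe set whose suffix marks probes that can match unrelated transcripts.

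Ifi27, the second gene of the family, rose in both of its probe sets. The dimmer one read 12.04, 12.42 and 11.91 on the arrays labelled Irgm1-/- and 10.32, 10.59 and 10.71 in wild type, a rise of 1.58 log2 units (SE 0.17, adjusted p = 0.0104). The brighter one read 12.43, 12.66 and 12.70 against 11.33, 11.27 and 11.49 in wild type, a difference of 1.23 (SE 0.12, adjusted p = 0.00783). Both probe sets kept the groups well apart, and the arrays did not come in the same order in each: replicate 2 was the highest mutant array in the dimmer one and replicate 3 in the brighter. The interval of the fold was 2.25 to 3.96 for the dimmer and 1.92 to 2.86 for the brighter, both below the interval of Ifi27l2a, although the difference between these genes was not tested. In the RefSeq gene table the spans of Ifi27 and Ifi27l2a overlap on chromosome 12, so a transcript of one could in principle be read by probes of the other. The suffix _s_at of the brighter probe set also marks probes shared between transcripts.

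Ly6e, a surface protein of immature thymocytes and many other blood cells, rose by its brighter probe set. The suffix _s_at of the brighter one marks probes shared between transcripts, and the dimmer one lacks that suffix. That probe set read 13.48, 13.29 and 13.45 on the arrays labelled Irgm1-/- and 12.43, 12.48 and 11.66 on the wild-type arrays. The mutant arrays lay within 0.2 of each other, and wild-type replicate 3 lay below the other wild-type arrays. The means were 13.41 ± 0.10 and 12.19 ± 0.46 (SD, n = 3 each), a rise of 1.22 log2 units (SE 0.22, adjusted p = 0.0476). The dimmer probe set read 10.36, 9.74 and 10.32 against 9.54, 9.55 and 8.84 in wild type. Its groups also stayed apart and the direction was the same, at 0.83 (SE 0.26, adjusted p = 0.188), but it did not pass. The interval of the fold was 1.64 to 3.30 in the brighter probe set and 1.17 to 2.70 in the dimmer, so they overlapped.

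**Figure D2:**
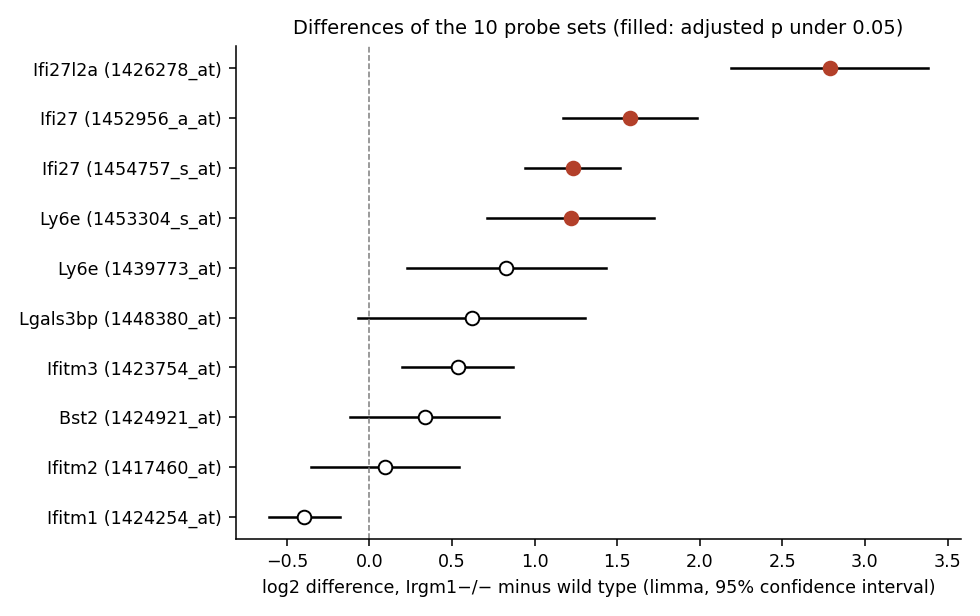
Log2 difference (horizontal axis, arrays labelled Irgm1-/- minus wild type) of each of the 10 probe sets with its 95% confidence interval; filled points passed the adjusted threshold. Ifi27l2a stands at 2.79, both Ifi27 probe sets and the brighter one of Ly6e between 1.22 and 1.58, and Ifitm1 at -0.39 is the only point left of 0.

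The call of Ifi27l2a was kept in each of 15 alternatives, with adjusted p of 0.000367 to 0.0449. The Ifi27 calls were lost when some single wild-type arrays were left out. The dimmer probe set did not pass without wild-type replicate 1 (1.47, adjusted p = 0.0575) or replicate 2 (1.60, adjusted p = 0.0606). With the replicate number as a block it did not pass either (adjusted p = 0.0533), and its adjusted p ranged from 0.00154 to 0.0606. The brighter one did not pass without wild-type replicate 2 (1.18, adjusted p = 0.0526), over a range of 0.00154 to 0.0526. Ly6e lay close to the threshold. Its brighter probe set passed in 4 of 15 alternatives and lost the call without mutant replicate 1, 2 or 3 or wild-type replicate 1 or 2, with differences of 1.18 to 1.36 and adjusted p of 0.0868 to 0.166. Without wild-type replicate 3, the array where Ly6e was lowest, it was 0.95 with an adjusted p of 0.0257.

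**Figure D3:**
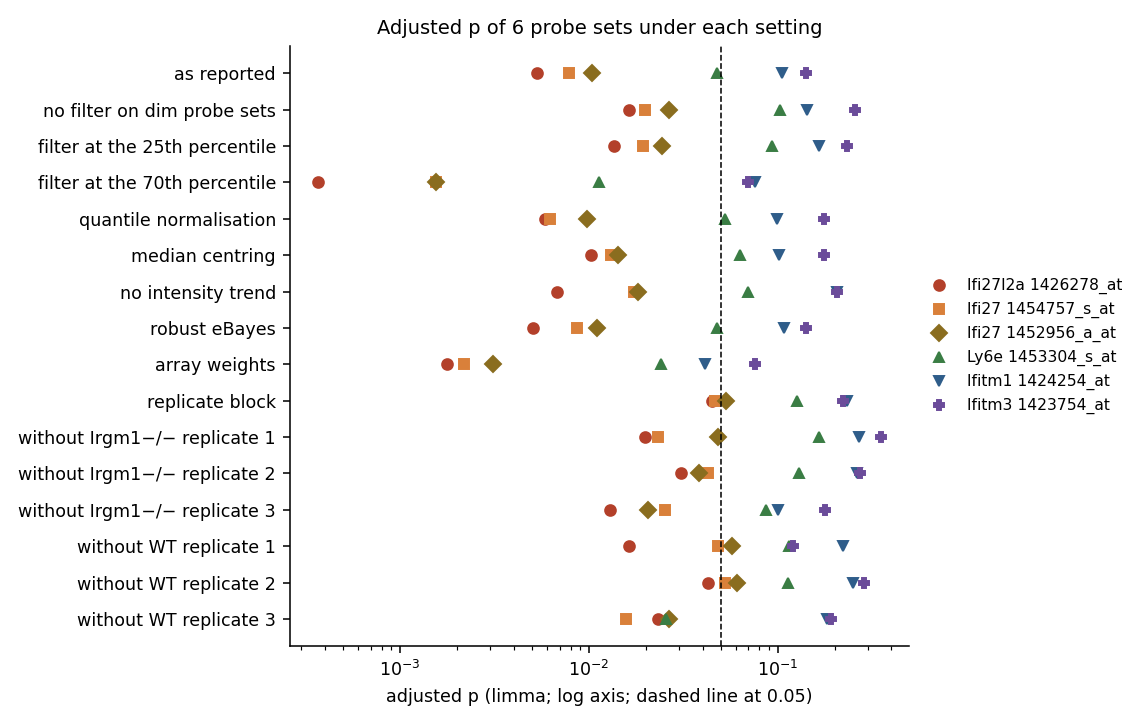
Adjusted p (horizontal log axis, dashed line at 0.05) of 6 probe sets under the reported setting and 15 alternatives (rows). Ifi27l2a stays left of the line in every row, Ly6e crosses it in most rows, Ifitm3 stays right of it throughout, and Ifitm1 crosses it only with array weights.

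None of the Ifitm genes passed; whether they differ from the 3 genes above was not tested. They stand near each other on chromosome 7 in the RefSeq gene order Ifitm5, Ifitm2, Ifitm1, Ifitm3, Ifitm6, with a pseudogene and a long noncoding RNA between Ifitm1 and Ifitm3. Ifitm3, which blocks viral fusion in endosomes, read 14.00, 13.91 and 13.99 on the arrays labelled Irgm1-/- and 13.71, 13.45 and 13.14 on the wild-type arrays. The groups did not overlap and the mutant arrays were nearly alike, with SDs of 0.05 and 0.28, but the difference of 0.53 (SE 0.14, adjusted p = 0.141) did not pass. Ifitm1, found mainly at the cell surface in human cells, read 13.14, 13.04 and 13.19 against 13.45, 13.51 and 13.58 in wild type. Here each mutant array lay below each wild-type array, by a difference of -0.39 (SE 0.09, adjusted p = 0.106). Ifitm2 read 11.45, 10.97 and 10.95 against 11.25, 10.77 and 11.07 in wild type, with overlapping groups and a difference of 0.09 (SE 0.19, adjusted p = 0.855).

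The intervals set limits on these differences. For Ifitm1 the 95% confidence interval ran from -0.61 to -0.18, so that a rise of any size lay outside it in this fit before adjustment for the number of probe sets. For Ifitm2 it ran from -0.35 to 0.54 and for Ifitm3 from 0.20 to 0.87, so doublings of signal lay outside both. Whether signal followed the amount of RNA at the brightness of Ifitm3 was not tested. With weights for array quality Ifitm1 passed as lower (-0.41, adjusted p = 0.0412), within a range of adjusted p from 0.0412 to 0.269 over 15 alternatives.

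The bone gene Ifitm5 and its relatives Ifitm6, Ifitm7 and Ifitm10 did not pass the filter on dim probe sets. Ifitm6 and Ifitm10 lay at or below the control probe sets on all arrays, at 2.38, 2.40 and 2.35 against 2.32, 2.44 and 2.33 for Ifitm6. Ifitm5 stood at 2.95, 2.97 and 3.31 against 2.89, 2.94 and 2.90, and Ifitm7 at 2.71, 2.65 and 2.66 against 2.65, 2.69 and 3.44.

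RefSeq promoter windows, from 250 bases before to 50 after an annotated start on build GRCm38.p6, were held for 5 of the 8 genes: Ifitm1, Ifitm2, Ifitm3, Bst2 and Lgals3bp. Ly6e, Ifi27 and Ifi27l2a, the genes that rose, had no window. The windows held are shown because Ifitm1 differs from Ifitm2, Ifitm3 and Bst2 in the sequence that interferon factors are known to bind. The windows were searched on both strands for GAAANNGAAA, the core of the interferon-stimulated response element, for AAANNGAAA, the same core without its first base and so found inside every match of the first, and for TTCNNNGAA, the core of the gamma-activated site. Capitals mark the first or second motif. Positions are counted from the first transcribed base as 0.
Ifitm1: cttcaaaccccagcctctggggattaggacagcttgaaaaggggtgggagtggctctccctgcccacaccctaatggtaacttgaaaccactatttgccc
Ifitm2: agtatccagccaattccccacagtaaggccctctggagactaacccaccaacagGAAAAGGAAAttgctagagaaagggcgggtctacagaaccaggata
Ifitm3: cagGAAAAGGAAActtctgaGAAACCGAAA
Bst2: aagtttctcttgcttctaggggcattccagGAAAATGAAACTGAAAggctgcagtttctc
Lgals3bp: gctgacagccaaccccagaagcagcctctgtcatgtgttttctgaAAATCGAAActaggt

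The Ifitm1 stretch is chr7:140967976-140968075 on the plus strand and the others are on the minus strand, with Ifitm2 at chr7:140955962-140956061, Ifitm3 at chr7:141010716-141010745, Bst2 at chr8:71537573-71537632 and Lgals3bp at chr11:118401960-118402019. Ifitm1, Ifitm2 and Lgals3bp are the stretches just before the start, Ifitm3 the 30 bases from -1 to 28 and Bst2 the bases from -160 to -101. GAAANNGAAA was found once in the Ifitm2 window, from -46 to -37, at 2 places in Ifitm3, from 2 and from 19, and at 2 overlapping places in Bst2, from -130 and from -124. The letters GAAAAGGAAA are the same in Ifitm2 and in the first place of Ifitm3. Lgals3bp had only the shorter AAANNGAAA, from -15, and the Ifitm1 window held none of the 3 motifs. TTCNNNGAA was found in Ifitm3, from 13, and in Bst2, from -136, and in both it overlaps a response element core. GAAANNGAAA was present in 3.44% of all 32851 windows of the table, in 24 of 58 windows of other interferon-induced genes (41.4%) and in 3 of the 5 windows here. AAANNGAAA was present in 10.6% of all windows and TTCNNNGAA in 8.30%. A match of letters is a description and does not show that a factor binds there, and other starts of these genes were not searched.

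**Figure D4:**
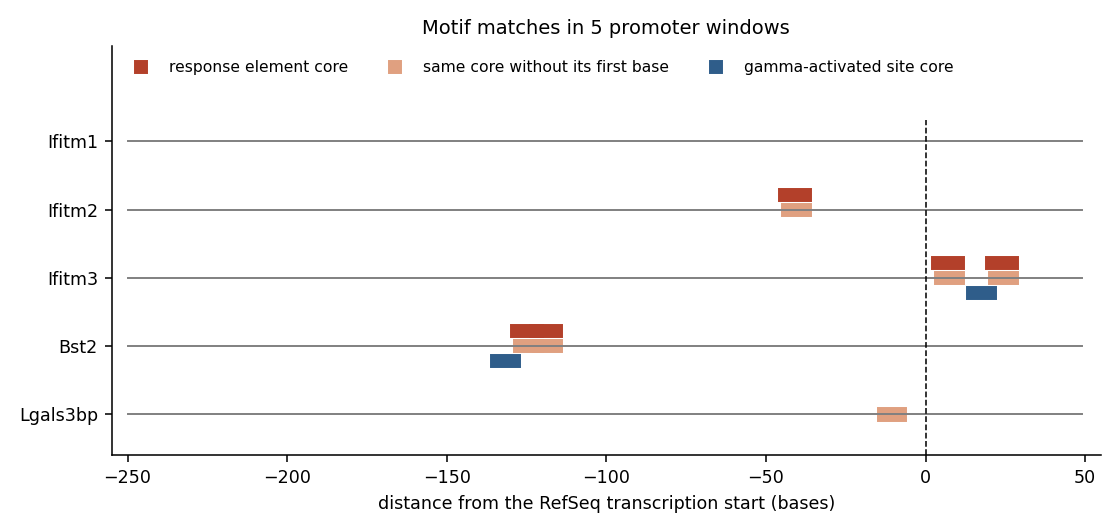
Motif matches in 5 promoter windows, by distance in bases from the RefSeq transcription start (dashed line, horizontal axis); the grey line is the window, and coloured boxes are the matches, with the response element core in red, the core without its first base in orange and the gamma-activated site core in blue. Ifitm2, Ifitm3 and Bst2 hold the response element core, Lgals3bp the shorter core only, and Ifitm1 none.

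None of these 5 genes passed, and differences between them were not tested. Whether the motifs go with the differences in signal was not tested either, and the genes that rose had no window. Bst2, with 2 overlapping cores, read 10.02, 10.34 and 9.91 on the arrays labelled Irgm1-/- and 9.70, 9.52 and 10.06 on the wild-type arrays. Wild-type replicate 3 lay among the mutant arrays, and the difference of 0.33 (SE 0.19, 95% confidence interval -0.12 to 0.79, adjusted p = 0.442) did not pass. Bst2 is also known as a surface marker of plasmacytoid dendritic cells and plasma cells. Of 12 plasmacytoid dendritic cell markers on the array, 7 were tested and 0 were called by limma (1 lower and 0 higher at an unadjusted p under 0.05), Cd209d lay at or below the control probe sets throughout, and the list's mean level was 4.57, 4.66 and 4.69 on the mutant arrays against 5.68, 4.61 and 4.66 in wild type. Of its members with the smallest p, Irf8 differed by -0.68 (adjusted p = 0.257), Tcf4 by 0.25 (adjusted p = 0.389), Dntt by -0.83 (adjusted p = 0.447) and Pacsin1 by 0.37 (adjusted p = 0.613). Of 5 tested B and plasma cell markers limma called 0 (2 lower and 0 higher unadjusted). Cd79a, Pax5, Vpreb1 and Tnfrsf17 lay at or below the control probe sets. Sdc1 differed by -1.09 (adjusted p = 0.0938) with the groups apart, Xbp1 by -0.30 (adjusted p = 0.300) and Cd79b by -0.42 (adjusted p = 0.421). Jchain was bright and uneven, at 8.59, 11.03 and 11.09 on the mutant arrays against 11.17, 6.69 and 10.29 in wild type (adjusted p = 0.770).

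Lgals3bp, with the shorter core, read 7.99, 8.45 and 8.69 on the arrays labelled Irgm1-/- and 8.27, 7.69 and 7.30 on the wild-type arrays. Wild-type replicate 1 exceeded mutant replicate 1, so the groups overlapped, and the difference of 0.62 (SE 0.29, 95% confidence interval -0.07 to 1.31, adjusted p = 0.349) did not pass. Without wild-type replicate 1 it was 0.88 (adjusted p = 0.296) and without wild-type replicate 3 it was 0.39 (adjusted p = 0.580). Of 4 tested galectin genes, the family that Lgals3bp binds, 1 rose and 0 fell. Lgals1 rose by 1.15 (SE 0.20, adjusted p = 0.0454) by its brighter probe set, with 10.26, 9.87 and 9.99 against 9.15, 8.97 and 8.56 in wild type. Its other probe set differed by 0.97 (adjusted p = 0.155). Lgals9 differed by 1.12 (SE 0.22, adjusted p = 0.0637) with the groups apart. Lgals8 differed by -0.55 (SE 0.13, adjusted p = 0.109), also with the groups apart, and by 0.09 in its dimmer probe set. Lgals3, which codes for the galectin that Lgals3bp is named after, was dim, at 3.92, 4.79 and 4.28 against 4.47, 3.06 and 2.89, where only 1 of the 3 wild-type arrays lay above its control probe sets, so no difference is given. Among 5 tested relatives of the 8 genes, 1 rose and 0 fell, and Ly6d, Ly6h and Ly6k did not pass the filter.

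Other interferon-induced genes were read on the same arrays. Of 51 tested interferon targets outside the 8, 15 rose and 0 fell, leaving 36 that did not pass (at an unadjusted p under 0.05 limma gave 31 higher and 0 lower, against 8.51% of all genes higher and 1039 genes lower), where 1.08% of all 10374 genes tested rose and 0.954% fell. The median difference was 0.82 over these 51, 0.58 over the 8 and 0.00 over all genes. The targets with the smallest p were Rsad2 (3.33, adjusted p = 0.000214), whose product viperin blocks viral replication, Phf11d (3.66, adjusted p = 0.00089), Usp18 (2.98, adjusted p = 0.00737), which removes the ubiquitin-like Isg15 from proteins and restrains interferon signalling, and Oasl1 (2.92, adjusted p = 0.00788), a relative of the 2'-5' oligoadenylate synthetases. Only 5 of the 51 had a larger difference than Ifi27l2a and 13 had a larger difference than Ifi27 or Ly6e, whereas 29 exceeded Ifitm3, 29 exceeded Lgals3bp, 37 exceeded Bst2, 46 exceeded Ifitm2 and 51 exceeded Ifitm1. The count of targets that rose was 4 without wild-type replicate 2, 5 without wild-type replicate 1, 7 without mutant replicate 2, 8 without mutant replicate 1, 9 without mutant replicate 3 and 10 without wild-type replicate 3.

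**Figure D5:**
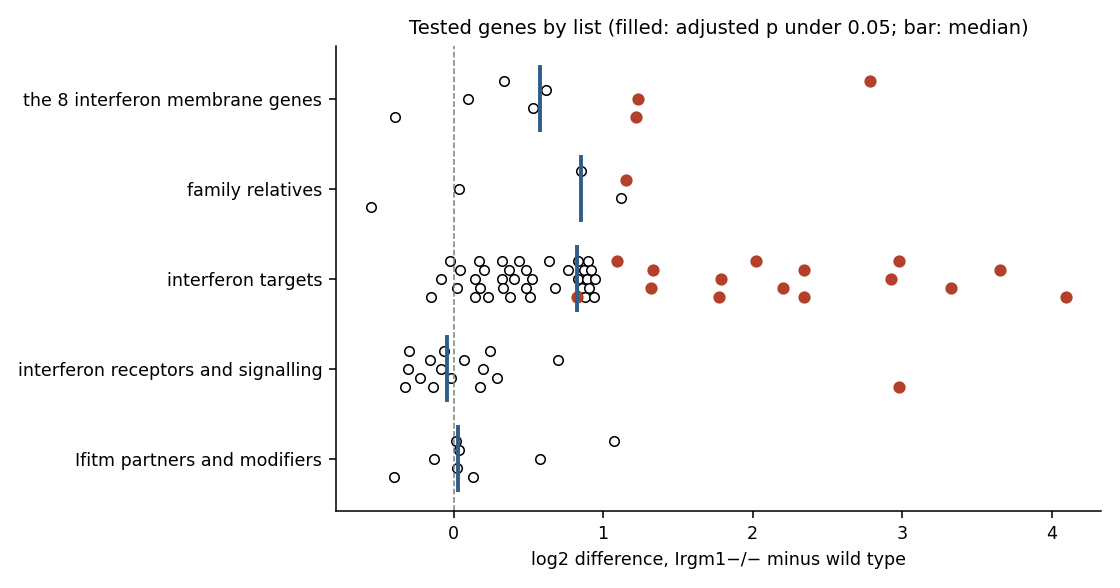
Log2 difference (horizontal axis, arrays labelled Irgm1-/- minus wild type) of each tested gene, by list; filled points passed the adjusted threshold and the blue bar is the list's median. The 8 genes run from -0.39 to 2.79, with a median of 0.58, and the 51 interferon targets from -0.15 to 4.10, with a median of 0.82, while the medians are -0.04 for receptors and signalling genes, which run from -0.33 to 2.98, and 0.03 for Ifitm partners, which run from -0.40 to 1.07.

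Among 16 tested receptors and signalling genes upstream of these targets, 1 rose and 0 fell (2 higher and 1 lower at an unadjusted p under 0.05), with a median of -0.04. The one that rose was Usp18. The lists overlap, since Usp18, Stat2 and Irf9 were also counted among the interferon targets. Ptpn11, a phosphatase, differed by -0.30 (adjusted p = 0.277), the type I interferon receptor chain Ifnar1 by 0.70 (adjusted p = 0.291) and the kinase Jak1 by -0.33 (adjusted p = 0.362). Of 8 tested genes whose products bind or modify IFITM3, limma called 0 (1 higher and 0 lower at an unadjusted p under 0.05), and the median was 0.03. The kinase Fyn, reported to phosphorylate human IFITM3, differed by 0.58 (adjusted p = 0.185) and the ubiquitin ligase Nedd4, which promotes its turnover, by -0.40 (adjusted p = 0.305). Vapb differed by 1.07 (adjusted p = 0.383), with wild-type replicate 2 far below the rest at 5.45, and its paralog Vapa by -0.13 (adjusted p = 0.606).

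Profiles over the 6 arrays, each taken relative to its wild-type mean, were compared by the root mean square difference among 10366 other genes. Nearest to Ifi27l2a was Oasl1, with a root mean square difference of 0.28 log2 units, before the interferon-induced Ifi213 (0.33) and Gimap4 (0.34), a GTPase gene of lymphocytes. Ifi27 was nearest to the transcription factor Runx3 (0.12), the polymerase subunit Pold2 (0.13) and Hemgn (0.15), and Ly6e to Naip2 (0.11), Slc43a3 (0.11) and Lgals1 (0.15). The nearest genes were Htt to Ifitm3 (0.03), Cebpb to Ifitm1 (0.04), Herc3 to Ifitm2 (0.08), Chd7 to Bst2 (0.07) and Dbnl to Lgals3bp (0.11). The measure takes in both the difference between the groups and the spread among the arrays of a group.

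Markers of other blood cells were read on the same arrays, since several of the 8 genes are also expressed by mature blood cells. Of 10 tested T and NK cell markers 5 rose and 0 fell (7 higher and 0 lower at an unadjusted p under 0.05). The mean level of the 17 on the array was 5.69, 5.53 and 7.15 on the arrays labelled Irgm1-/- against 4.30, 3.97 and 4.22 in wild type. Cd4, Prf1 and Ncr1 lay at or below the control probe sets on all arrays. The chemokine Ccl5 rose by 4.93 (adjusted p = 0.00207), Thy1 by 3.63 (adjusted p = 0.0209) and Ms4a4b by 3.71 (adjusted p = 0.024). Klrd1 rose by 3.97 (adjusted p = 0.0342). Cd3e, Cd8a, Cd2, Cd28 and Nkg7 were tested and not called. Nkg7 differed by 2.61 (adjusted p = 0.0532) and Cd2 by 1.99 (adjusted p = 0.283), each with the groups apart. Cd28 differed by 0.68 (adjusted p = 0.433), and its groups overlapped. Cd3e read 4.77, 4.68 and 6.56 on the mutant arrays against 4.47, 4.66 and 4.58 in wild type. Cd8a read 3.74, 3.81 and 6.21 against 3.76, 3.71 and 3.66. Cd3d, Cd3g, Cd5 and Gzma did not pass the filter on dim probe sets. Granzyme B (Gzmb) was called higher (adjusted p = 0.0162), at 6.83, 6.48 and 8.26 against 3.87, 3.00 and 3.64 in wild type, where replicate 2 lay below its control probe sets, and the mutant arrays alone were enough for it to pass the filter on dim probe sets. Mutant replicate 3, the highest array for these markers, was also the highest for Ifi27l2a, Lgals3bp and the brighter Ifi27 probe set, but the lowest mutant array for the dimmer Ifi27 probe set, Ifitm2 and Bst2. Without it Ifi27l2a differed by 2.57 (adjusted p = 0.013), Ifi27 by 1.69 (adjusted p = 0.0207) and 1.18 (adjusted p = 0.0252) and the brighter Ly6e probe set by 1.19 (adjusted p = 0.0868). Mutant replicates 1 and 2 were also high for the called markers, with Ccl5 at 12.81 and 12.77 against 8.69, 7.33 and 8.29 in wild type. Leaving out replicate 3 therefore did not remove the signal of these markers, and their part in the differences was not tested.

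Of 10 tested monocyte and macrophage markers 2 rose and 0 fell (5 higher and 1 lower at an unadjusted p under 0.05). The mean level of the 11 on the array was 6.59, 6.97 and 7.20 against 6.72, 5.97 and 5.94 in wild type, with Fcgr1 at or below the control probe sets. Ms4a6c rose by 1.53 (adjusted p = 0.0313) and Ms4a6b by 1.80 (adjusted p = 0.0338), whereas Cd14 differed by -1.25 (adjusted p = 0.0518) and Cd68 by 0.76 (adjusted p = 0.167). Wild-type replicate 1, the highest wild-type array for this list, was also the highest wild-type array for Lgals3bp, Ifitm3, Ifitm2 and Ifi27l2a, but the lowest for Ifitm1 and the dimmer Ifi27 probe set. The part of T, NK or monocyte markers in the results of the 8 genes was not tested. Limma called 0 neutrophil markers of 4 tested (0 in either direction unadjusted) and 0 erythroid markers of 4 (0 higher and 1 lower unadjusted). Of 6 tested endothelial and stromal markers 0 rose and 1 fell, the collagen gene Col1a2, by 2.88 (adjusted p = 0.00889). At an unadjusted p under 0.05 limma gave 2 higher and 2 lower. Vwf differed by 1.76 (adjusted p = 0.112), Emcn by -0.86 (adjusted p = 0.132) and Plvap by 1.20 (adjusted p = 0.242), each with the groups apart.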

How the data were processed

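Each of 6 arrays was hybridised with amplified, biotin-labelled RNA of sorted stem cells, 3 labelled Irgm1-/- and 3 wild type. The authors deposited log2 values made by GCRMA, per the submitters' processing notes, with no version named in the sources used here. That the values are log2 was inferred from their range. They were used as deposited. Probe sets were named through the platform's table, where 34958 of 45101 had 1 symbol, and all 10 probe sets of the 8 genes matched a RefSeq gene ID (GRCm38.p6).

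Probe sets above the array's median on at least 3 of 6 arrays were tested (22580, including all 10), whatever the group, with control probe sets left out. Limma 3.58.1 in R 4.3.3 fitted 1 coefficient, mutant label minus wild type (lmFit, eBayes with an intensity trend). Tests were 2-sided with Benjamini-Hochberg adjustment over all probe sets tested. The fit was tested on simulated data. In lists, the brightest tested probe set on average stood for its gene. Up to 4 genes per list with the smallest p were named, with every tested relative and every tested T and NK cell marker. For each of the 8 genes the nearest of its 3 closest profiles was named, all 3 for those that rose. The 8 genes, lists and tests were chosen with earlier results of these data known. The number of arrays limits precision. The alternatives were other filters, scalings and variance models, the replicate number as a block, array weights, other thresholds and leaving out each array.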

Additional observations from a re-analysis of the deposited data

How the results depend on the processing

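The direction of 9 of the 10 probe sets was the same under every alternative. Ifitm2 changed sign without mutant replicate 1 (-0.072) and without wild-type replicate 2 (-0.036), and lay between -0.072 and 0.205 over the arrays left out. Of the 10 probe sets, 4 rose as reported, 2 at an adjusted p under 0.01, 2 with the replicate number as a block, and 1 to 4 when single arrays were left out, the lowest without wild-type replicate 2. The count that fell was 0, and 1 (Ifitm1) with array weights. Of the interferon targets 15 rose as reported, 9 with no filter or a filter at the 25th percentile, 5 at an adjusted p under 0.01, 3 with the replicate block, and 4 to 10 when single arrays were left out. Of the receptors and signalling genes 1 was called, and limma called 0 with a filter at the 70th percentile, which left 15 genes without Usp18 (1 at an unadjusted p under 0.05). Over all probe sets 150 rose and 163 fell as reported, against 401 and 463 with array weights, 49 and 54 with no filter, 27 and 41 with the block and 62 and 64 with the filter at the 25th percentile. Leaving out single arrays gave 17 to 138 higher and 28 to 129 lower. With the block the dimmer Ifi27 probe set (adjusted p = 0.0533) and the brighter Ly6e probe set (adjusted p = 0.126) lost their calls. The labels number the arrays and do not say whether equal numbers were processed together. Deviations from the group means correlated at -0.11, -0.02 and -0.28 for replicates 1, 2 and 3 of the groups. For pairs of unlike number they correlated at -0.20 to 0.24, so these values cannot tell whether arrays of equal number shared a batch. Other causes of these shifts were not tested. Groups of 3 arrays limit what can be called.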
